A study of Mus musculus with 2 samples.

Results

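The genes described here are 10 interferon-induced antiviral effectors of the mouse, *Ifit1*, *Ifit2*, *Ifit3*, *Oas1a*, *Oas2*, *Oas3*, *Oasl1*, *Oasl2*, *Mx1* and *Mx2*, chosen by name from the 22555 genes that could be named on the array. They are read by 11 of its 55662 usable probes, 1 probe for each gene and 2 for *Oas1a*, and each of these probes is printed as 1 spot. Long-term hematopoietic stem cells (LT-HSCs), the bone marrow cells that renew themselves and supply all blood lineages for life, were sorted from 2-year-old C57BL/6J mice as CD150+CD48-Flt3-CD34- LSK cells. The LSK gate keeps cells without lineage markers that carry Sca-1 and c-Kit, and the study's methods also name CD41 as absent. RNA of each genotype was hybridised to 1 single-colour Agilent array, and both arrays lay on the same slide. The mice of the array labelled p38KO carried CAG-CreERT2 and floxed *p38α* (gene symbol *Mapk14*), a stress-activated kinase, and tamoxifen was given at about 1 year of age. The wild-type array stands for age-matched mice with the floxed gene but without Cre, which received tamoxifen too. The CAG promoter drives the recombinase in nearly all tissues, so the deletion was not limited to blood cells, and the number of mice behind each array is not given in the sources used here. With 1 array per genotype genotypes cannot be tested against each other and the spread between mice is unknown, and the errors below are those of spots on an array.

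Interferons bind receptors at the cell surface, whose kinases Jak1 and Tyk2 activate a transcription factor complex that includes STAT2 and IRF9. This complex binds a DNA element, the interferon-stimulated response element (ISRE), in front of its target genes, and IRF7, itself induced by interferon, amplifies the response. IFIT proteins bind viral RNA and block its translation. OAS proteins sense double-stranded RNA and make 2′-5′ oligoadenylates, small messengers of the antiviral response, and the OAS-like proteins OASL1 and OASL2 are relatives that carry ubiquitin-like domains. Mx proteins are dynamin-like GTPases that trap viral components, and laboratory strains such as C57BL/6 carry defective *Mx1* and *Mx2* genes. RefSeq lists *Mx1* and *Mx2* as transcribed pseudogenes with 0 proteins and the other 8 genes as protein coding. HSCs express many such genes without infection, and a strong interferon signal drives quiescent HSCs into division.

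Promoters that hold the element through which this complex acts are shown first, to let the element be seen in these genes. RefSeq promoter windows of build GRCm38.p6, reaching from 250 bases before to 50 bases after a gene's start, were found for 7 of the 10 genes and searched on both strands for the ISRE core GAAANNGAAA, which reads TTTCNNTTTC on the other strand. The core was present in the windows of *Ifit1*, *Ifit3*, *Oas1a* and *Oas3*, and these letters were not found in those of *Ifit2*, *Oasl1* and *Oasl2*. Of all 32851 windows 3.44% held it, as did 11 of 32 windows of other interferon-stimulated genes and 5 of 7 windows of the other *Ifit* and *Oas1* genes described below, whose median difference lay above 0. Among the effectors with the core, *Ifit3*, *Ifit1*, *Oas3* and *Oas1a* differed by −2.79 (a bound), −1.27, −1.17 and −0.38 (log2, p38KO minus wild-type). Those without it, *Oasl2*, *Ifit2* and *Oasl1*, differed by −0.99, −0.47 and 0.13 (a bound). A link between the core and these differences was not tested. The stretches below run 5′ to 3′ on the strand of the gene, with each match in capitals and up to 20 bases on either side. They are taken from *Ifit1* (chr19:34640765-34640833, plus strand), *Ifit3* (chr19:34583353-34583436, plus strand), *Ifit3b*, the close relative of *Ifit3* (chr19:34607749-34607832, plus strand), *Oas3* (chr5:120777705-120777754, minus strand) and *Oas1a* (chr5:120907526-120907565, minus strand).
Ifit1: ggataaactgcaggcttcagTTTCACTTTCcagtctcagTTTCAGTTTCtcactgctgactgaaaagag
Ifit3: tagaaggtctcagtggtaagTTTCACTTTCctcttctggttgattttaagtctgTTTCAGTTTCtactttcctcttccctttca
Ifit3b: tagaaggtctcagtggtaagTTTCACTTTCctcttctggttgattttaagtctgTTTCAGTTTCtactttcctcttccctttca
Oas3: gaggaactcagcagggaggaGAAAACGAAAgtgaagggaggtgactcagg
Oas1a: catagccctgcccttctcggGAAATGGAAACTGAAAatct

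In *Ifit1* the matches begin 104 and 85 bases before the start of the gene. In *Ifit3* they begin 156 and 122 bases before it, 34 bases apart, and the stretch of 84 bases printed for *Ifit3b* has the same letters. The *Oas3* match begins 75 bases before the start. *Oas1a* has 2 overlapping matches, 20 and 14 bases before its start, which together give the capitals shown.

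The targeted gene was looked at next. *Mapk14* is read by 2 probes. The first gave an intensity of 728 on the wild-type array and 569 on the array labelled p38KO, and the other 605 and 468. The p38KO array was dimmer as a whole, with a 75th percentile of 6.85 on the log2 scale against 7.16. On the log2 scale relative to each array's 75th percentile, used below for all signals, the p38KO array was lower by 0.04 and 0.05. This is less than 0.09, the SD that scatter of repeated spots within each array gives for single-spot differences of bright probes. The spot SDs below are of this kind and leave out variation between arrays and between mice. Which exons the floxed allele loses is not given in the sources used here, so a probe outside them could not show the deletion. The directions below therefore rest on the arrays' labels.

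Of the 10 effectors, 9 could be measured, that is, their spot stood well above background on 1 array or both, and 8 of these 9 had a lower signal on the p38KO array. Over all genes measured on at least 1 array, 52.4% were lower by any amount. *Ifit1*, *Ifit3* and *Oas3*, 3 of 9, were at least 2-fold lower, against 6.62% of all 17198 genes, and none was 2-fold higher, against 4.11%. *Ifit3* and *Mx2* entered the 9 only through the wild-type array and *Oasl1* only through the p38KO array, which largely sets their direction. The 6 effectors measured on both arrays were all lower, against 53.2% of genes with probes well above background on both. Of these 6, *Ifit1* and *Oas3* were at least 2-fold lower, against 5.02% of such genes. The median log2 difference of the 9 genes (p38KO minus wild-type) was −0.62, a value set by the bound of *Mx2*, beside −0.03 over all genes. These counts depended on the background correction: after normexp correction, which compressed small signals, 7 of 9 were lower, beside 44.5% of all genes, and 0 were 2-fold lower, beside 0.727% of all genes. The median was then −0.29. In RNA from sorted cells, fewer cells that express a gene and less of its RNA per cell cannot be told apart.

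**Figure D1:**
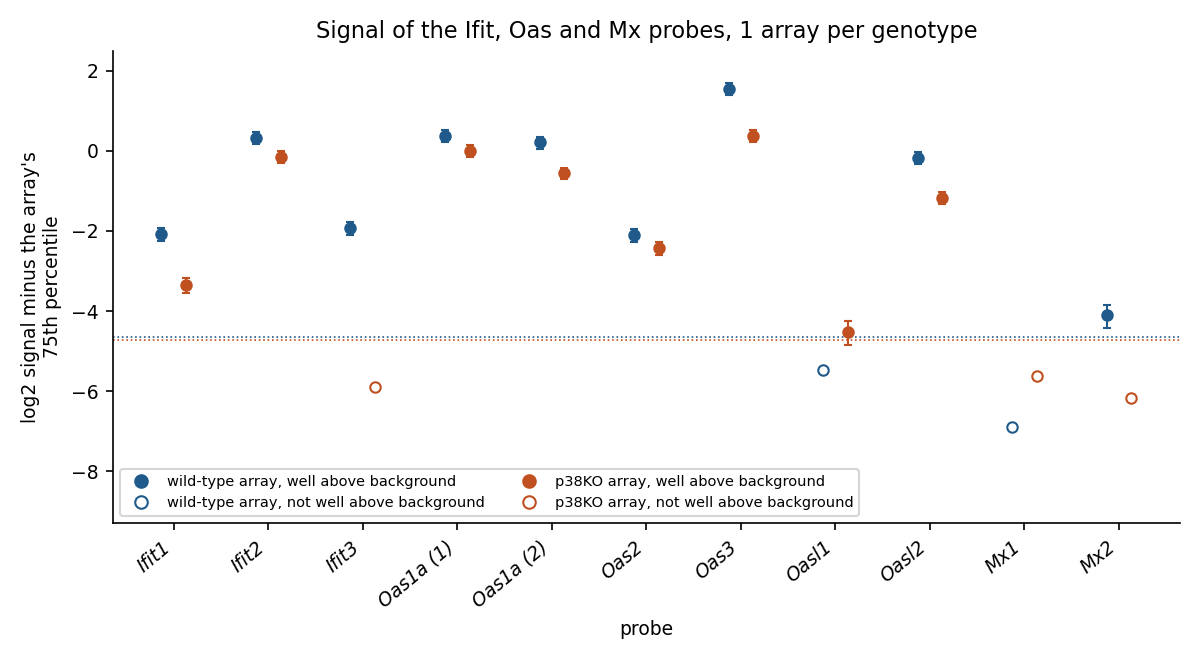
The log2 signal of the 11 probes, relative to the 75th percentile of each array, on the wild-type (blue) and p38KO (orange) array. Bars are the scanner's error for the spot, open circles are spots not well above background, and dotted lines mark the lowest signal well above background of each array, −4.65 and −4.72. Levels of different probes cannot be compared; within a probe, blue lies above orange except for *Oasl1* and *Mx1*.

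The *Ifit* genes lie together on chromosome 19, where the probes of the 6 family members on the array span 73.6 kb (mm9). *Ifit1* encodes a protein that holds viral RNA with an unmodified cap. Its probe (chr19:34723796-34723855) gave an intensity of 33.9 ± 3.59 (the scanner's error of the spot, as for all intensities here) on the wild-type array and 11.3 ± 1.45 on the p38KO array. The 2 values stand well apart. The log2 signals were −2.08 and −3.35, a difference of −1.27 or 2.41-fold, against an SD of 0.31 for differences of single spots as dim as this. Of all genes, 4.01% were as low or lower. With normexp correction the difference was −0.25.

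*Ifit3* encodes another IFIT protein, whose human counterpart is a partner of IFIT1. It had an intensity of 37.6 ± 3.94 on the wild-type array and of 1.94 ± 0.922 on the p38KO array, where it was not well above background. Set against the lowest signal well above background on that array, it was at least 6.92-fold lower, a log2 bound of −2.79. Loss of detection was uncommon at this brightness: of 5770 probes within 0.5 of its wild-type log2 signal, 4.02% were not well above background on the p38KO array. The same difference was −3.96 with no floor and −0.53 with normexp correction.

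*Ifit3b*, a duplicate of *Ifit3* that is not among the 10 genes, gives a second reading from its own probes. The probe that was brighter on the wild-type array had an intensity of 34.4 ± 3.68 on the wild-type array and 1.90 ± 0.989 on the p38KO array, and the other 15.2 ± 2.21 and 5.58 ± 1.35. The latter had the higher mean over both arrays and stands for the gene in counts. Neither probe was well above background on the p38KO array, as for *Ifit3*. The differences were at least 6.33-fold and at least 2.19-fold. With normexp correction they were −0.43 and 0.04 on the log2 scale. The probes are different oligonucleotides, as their first 30 of 60 bases show, printed 5′ to 3′ for *Ifit3* (mm9, chr19:34663105-34663134, plus strand) and for the *Ifit3b* probe that stands for the gene and its other probe (chr19:34687522-34687551 and chr19:34687797-34687826, plus strand).
Ifit3: caattttccagtcagcaaacctcattacta
Ifit3b, in counts: cttaaagctcacagaccaccttttgatcac
Ifit3b, other: tgccaaatggaaattgtagaataaatgtaa

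The longest run of bases that either *Ifit3b* probe shares with the whole *Ifit3* probe is 8. The transcripts themselves were not compared, so each probe may still bind RNA of both genes, and the loci cannot be separated with certainty.

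*Ifit2*, whose product pairs with the other IFIT proteins, had an intensity of 179 ± 18 on the wild-type array and 104 ± 10.4 on the p38KO array. The log2 difference of −0.47 was larger than the SD of 0.12 between spots of this brightness, but 19.98% of all genes were as low. The remaining genes of the cluster, *Ifit1bl1* and *Ifit1bl2*, were higher on the p38KO array, by 0.74 and 0.63, so neighbours within the same cluster differed in direction.

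**Figure D2:**
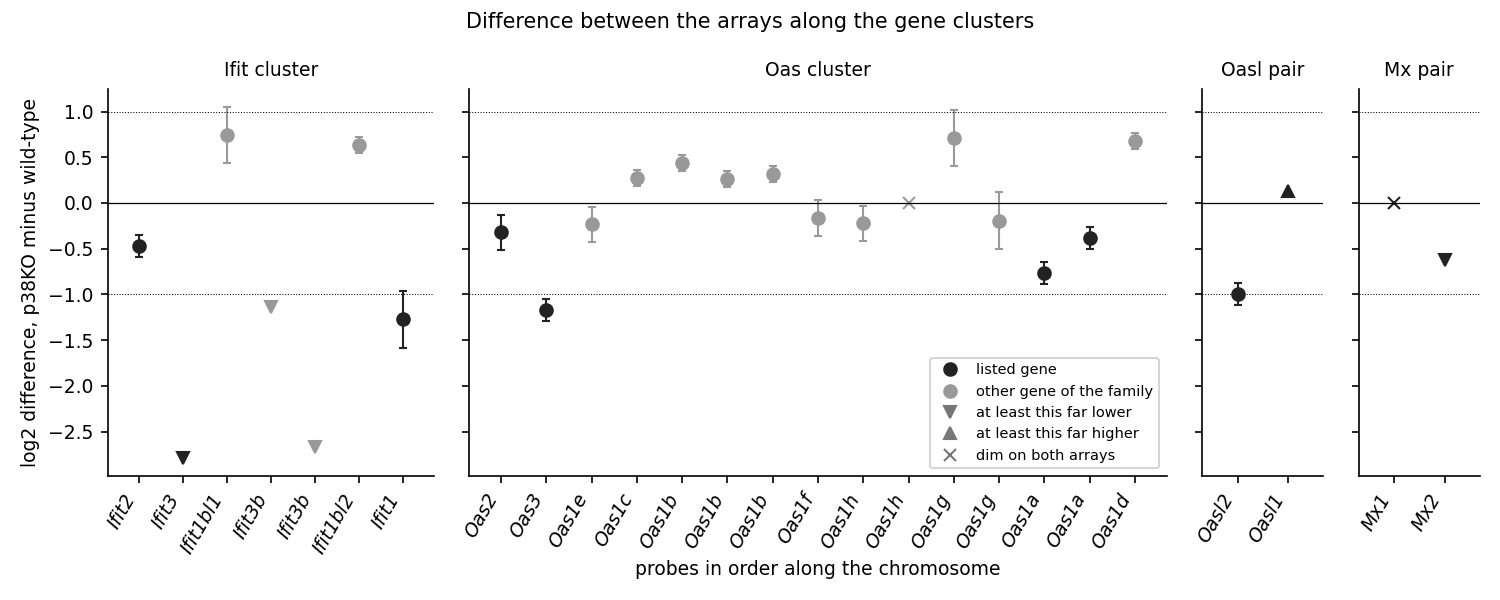
Log2 difference between the arrays (p38KO minus wild-type) for every probe of the *Ifit*, *Oas*, *Oasl* and *Mx* loci, in order along the chromosome. Black points are the 10 effectors and gray points other genes of the families; bars are the SD of single-spot differences at that brightness, triangles are bounds where 1 array was dim, and crosses, drawn at 0, are probes dim on both arrays. Black points lie below 0 except *Oasl1* and the cross of *Mx1*, whereas most gray points of the *Oas* cluster lie near or above 0.

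The *Oas* cluster on chromosome 5 holds probes for 10 genes over 191 kb (mm9). *Oas3* encodes the largest OAS enzyme. Its probe (chr5:121203598-121203657) had an intensity of 420 ± 42.0 on the wild-type array and 150 ± 15 on the p38KO array. The values do not approach each other within their errors. The log2 signals of 1.55 and 0.38 differ by −1.17 or 2.25-fold, with an SD of 0.12 for such spots, and 4.75% of all genes were as low. It kept most of its size with normexp correction, at −0.97.

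*Oas1a*, a catalytically active member of the mouse *Oas1* group, is read by 2 probes. The first had an intensity of 187 ± 18.7 on the wild-type array and 115 ± 11.52 on the p38KO array. The other had 166 ± 16.6 and 78.1 ± 7.89. Both were lower on the p38KO array, but by different amounts, −0.38 and −0.77 on the log2 scale, each beyond the spot SD of 0.12. The second probe shares a run of 14 bases with a probe of *Oas1f*; no other effector probe shares more than 9 bases with a probe of another gene shown here. *Oas2*, encoding the enzyme with a doubled catalytic unit, had intensities of 33.3 ± 3.58 and 21.4 ± 2.35. Its difference of −0.32, with a spot SD of 0.19, was the smallest of the effectors measured on both arrays, and it was −0.02 with normexp correction.

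The other genes of the *Oas1* group, most of which encode proteins without known enzyme activity, were compared as the nearest relatives. Together with *Ifit1bl1*, *Ifit1bl2* and *Ifit3b* they make 10 genes, of which 4 were lower and 6 higher on the p38KO array. Their median difference was 0.27, and it stayed between 0.19 and 0.31 under the 9 other ways of processing. *Oas1b*, listed by RefSeq as a transcribed pseudogene and truncated in C57BL/6, had intensities of 13384 and 12864, 4774 and 4766, and 3560 and 3881 at its 3 probes. These were 0.26, 0.31 and 0.44 higher on the p38KO array. *Oas1d* was 0.68 higher and *Oas1c* 0.27 higher, whereas *Oas1e*, *Oas1f* and the brighter *Oas1h* probe were lower by 0.23, 0.17 and 0.22, close to their spot SD of 0.19. The *Oas1g* probes disagreed, at 0.71 and −0.19. Within this group *Ifit3b* was the one gene past 2-fold.

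The OAS-like genes lie 5.79 Mb from the *Oas* cluster on the same chromosome. *Oasl2* encodes an OAS-like protein induced by interferon. It had an intensity of 127 ± 12.7 on the wild-type array and 51.1 ± 5.19 on the p38KO array, a clear separation. The difference of −0.99 is 1.99-fold, just outside the 2-fold limit, where *Oas3* at 2.25-fold lies just inside. *Oasl1*, which encodes a repressor of IRF7 translation, was the exception in direction. It had an intensity of 3.25 ± 1.20 on the wild-type array, not well above background, and 5.02 ± 1.01 on the p38KO array, barely above it. It was at least 1.097-fold higher, which is within the spot SD.

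The *Mx* genes were at the limit of detection. *Mx1* had intensities of 1.21 ± 1.22 and 2.35 ± 0.947 and lay below the detection limit on both arrays, which leaves it without a fold. *Mx2* had an intensity of 8.34 ± 1.62 on the wild-type array and 1.59 ± 1.05 on the p38KO array, where it was not well above background. It was at least 1.54-fold lower, and this direction did not hold with normexp correction, which gave 0.07 on the log2 scale. The *Mx* loci thus add little to the comparison at this signal.

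**Figure D3:**
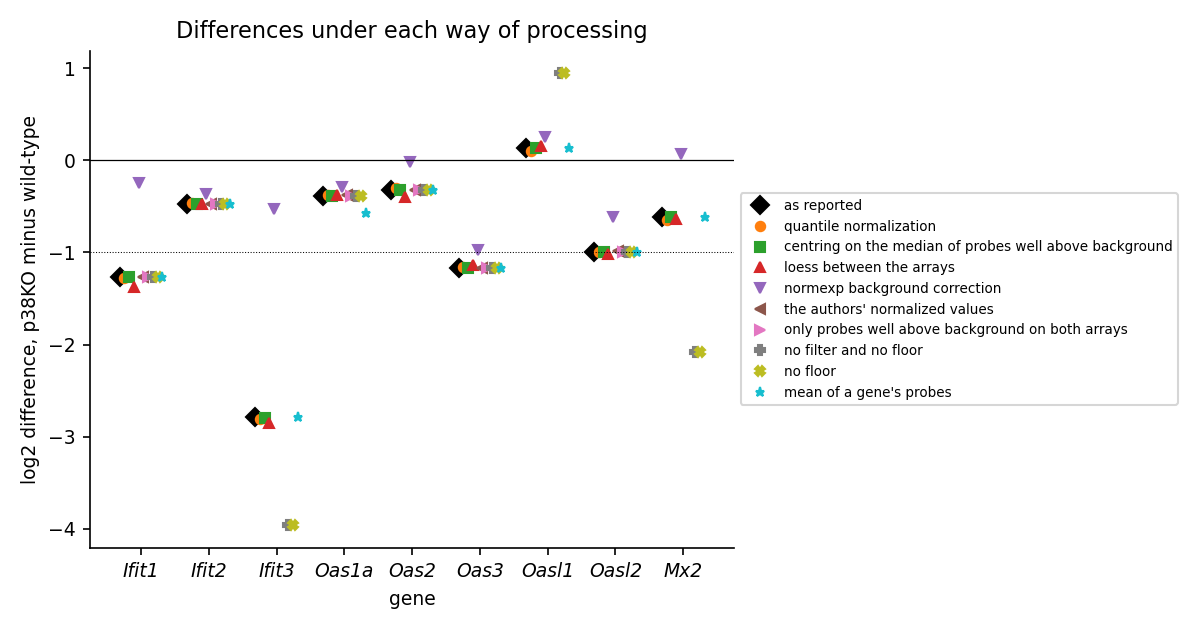
Log2 difference (p38KO minus wild-type) of the 9 measured effectors as reported (black diamonds) and under 9 other ways of processing. Most points of a gene coincide; normexp correction places *Ifit1* at −0.25, *Ifit3* at −0.53 and *Mx2* at 0.07, but *Oasl1* farther from 0, at 0.25, and omitting the floor moves *Ifit3* to −3.96, *Mx2* to −2.08 and *Oasl1* to 0.94.

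The rest of the interferon pathway was then followed from ligand to target. Of 21 listed interferon genes 16 had probes, and 8 were well above background, each on both arrays. All 8 were slightly higher on the p38KO array, by 0.05 to 0.64, although 2 of them were lower with a loess between the arrays, and none was 2-fold different. By comparison, 53.2% of genes with probes well above background on both arrays were lower. The 6 receptor subunits had a median difference of 0.20. *Ifnar2*, a subunit of the type I interferon receptor, differed by −0.14. The 3 probes of the other subunit, *Ifnar1*, disagreed, with −0.07, −1.06 and −0.68.

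Of the factors that carry the signal to the nucleus, *Irf9*, a DNA-binding subunit of the complex described above, had intensities of 541 ± 54.1 on the wild-type array and 282 ± 28.2 on the p38KO array and a difference of −0.62. Its partner *Stat2* was lower by 0.20. Both differences were smaller than those of *Ifit1*, *Ifit3* and *Oas3*, though no test of that is possible.

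Of the listed pathway genes measured on both arrays, *Irf7* differed most. Its intensity was 95.3 ± 9.61 on the wild-type array and 7.44 ± 1.18 on the p38KO array, well above background on both. It was 10.3-fold lower, a log2 difference of −3.36, and was lower by 1.14 with normexp correction. The other 4 interferon regulatory factors lay between −0.55 and 0.23, none of them 2-fold different.

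*Usp18*, an interferon-induced inhibitor of its own receptor, had intensities of 14.5 ± 2.16 and 4.85 ± 1.24, the second not well above background. It was at least 2.40-fold lower, a direction lost with normexp correction, which gave 0.02 on the log2 scale. Over the 7 inhibitors of interferon signalling 5 were lower, beside 52.4% of all genes, with a median of −0.35. *Pde12*, which degrades the 2′-5′ oligoadenylates that OAS enzymes make, had intensities of 20.4 ± 2.59 and 1.00 ± 1.01. It was at least 3.76-fold lower, with its p38KO spot not well above background. The difference of *Pde12* was only −0.18 on the log2 scale with normexp correction.

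Of 42 other interferon-stimulated genes 40 were measured, all on both arrays. The signal of 31 was lower on the p38KO array, against 53.2% of genes with probes well above background on both arrays. The median of the 40 was −0.30, between −0.37 and −0.28 under the other ways of processing. Only *Rtp4*, a receptor transporter that also acts against viruses, and *Epsti1* were at least 2-fold lower, and between 1 and 3 genes were under the other ways of processing. This is close to the 5.02% of all genes measured on both arrays. *Rtp4* had intensities of 1145 ± 114 and 325 ± 32.5, a 2.83-fold difference, and *Epsti1* 67.4 ± 6.84 and 27.1 ± 2.85, a 2.00-fold difference. None was 2-fold higher, and the range ran from −1.50 to 0.58.

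**Figure D4:**
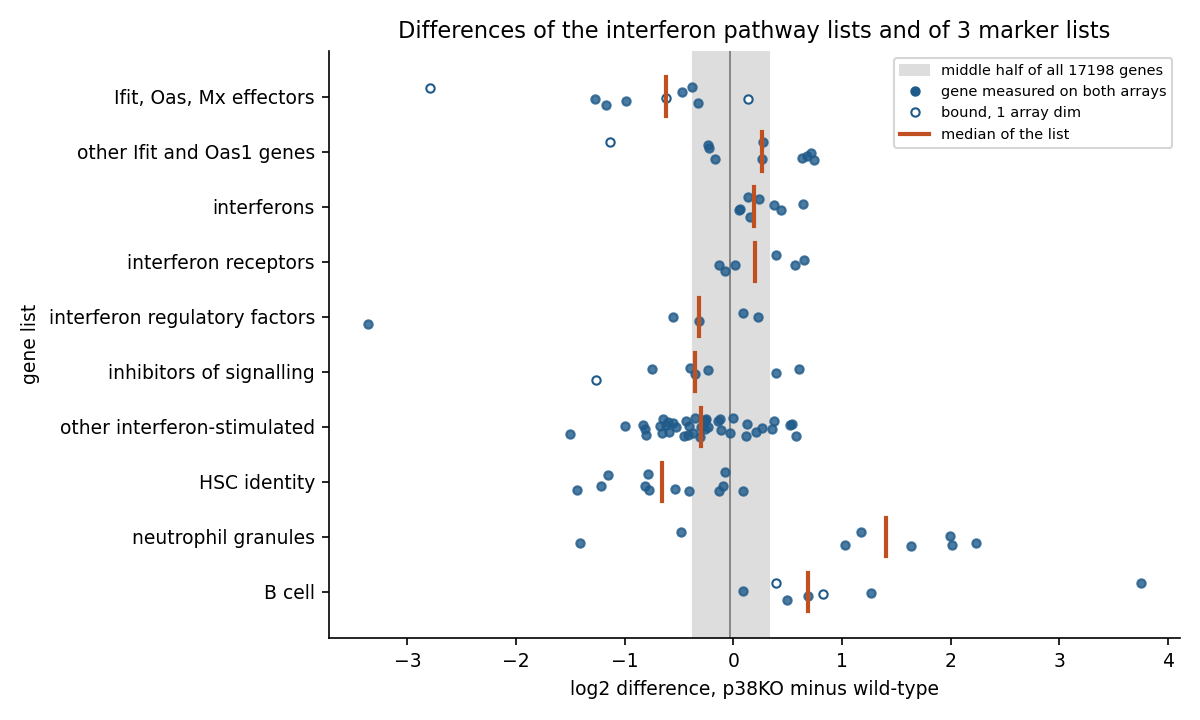
Log2 difference (p38KO minus wild-type) of each gene in 7 interferon pathway lists and 3 marker lists, with list medians in orange; open circles are bounds where 1 array was dim. The gray band spans the quartiles of all 17198 genes, −0.38 to 0.33. The effectors' median lies at −0.62 and that of the interferons at 0.19, whereas the neutrophil and B cell lists lie to the right, at 1.40 and 0.69.

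Markers of cell identity differed between the arrays as well. All 12 HSC identity genes were well above background on both arrays, and 11 were lower on the p38KO array, with a median of −0.66. Of all genes with probes well above background on both arrays, 53.2% were lower. *Mecom*, *Procr* and *Hoxa9* were at least 2-fold lower at their brightest probes, by 1.44, 1.22 and 1.15, although the other probes of *Mecom* gave 0.61 and −0.10 and that of *Hoxa9* gave −0.37. The list's summed signal, in multiples of each array's 75th percentile, was 160 on the wild-type and 128 on the p38KO array. Of 8 neutrophil granule genes 6 were at least 2-fold higher on the p38KO array, against 4.11% of all genes, among them *Ltf* by 2.23, *S100a9* by 2.01 and *Ngp* by 1.99, whereas *Elane* was lower by 1.41. With normexp correction 2 of the 8 were 2-fold higher. Their summed signal was 7.17 and 21.5. All 7 B cell genes were higher, against 8193 of all 17198 genes, with *Jchain* at 3.75 and *Cd79a* at 1.26. The summed signal of the B cell list was 2.65 and 17.5. *Jchain* carried most of this: the other 6 genes summed to 1.52 and 2.26, and *Ebf1* and *Ms4a1* were not well above background on the wild-type array. The 4 markers left out by the gate had a median of 0.11 and ran from −0.37 to 1.37. The highest was *Cd48*, with 1.37 at its brighter probe and 0.19 at the other.

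The cell types known for strong interferon signals were also looked at. Plasmacytoid dendritic cell genes had a median of 0.12 over 6 measured genes and *Ccr9* was lower by 1.43, the 1 gene of this list past 2-fold. The 6 measured monocyte and macrophage genes had a median of −0.04. *Cx3cr1* was at least 3.19-fold and at least 5.46-fold lower at 2 of its probes. With normexp correction these 2 probes were lower by 0.10 and 0.29 on the log2 scale. They cover nearly the same bases and so are not separate readings, and the remaining *Cx3cr1* probe was dim on both arrays. The 5 measured T and NK cell genes had a median of 0.57 and ran from −0.53 to 1.02, the highest being *Cd3e*. The 5 measured erythroid genes had a median of 0.25 and ran from −1.098, for *Hbb-bt*, to 0.50. No endothelial or stromal gene was 2-fold different. The part that these cells have in the signal of the *Ifit* and *Oas* genes was not tested.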

How the data were processed

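RNA of sorted LT-HSCs was read on single-colour arrays, 1 per genotype. The authors deposited scanner intensities from Agilent Feature Extraction 11.5.1.1 (per the labels), corrected for background within each array but not normalized between arrays. The authors also deposited normalized log2 values of 35795 probes, of which 7 belong to the 10 genes; each column equals the log2 signal minus a constant, 7.16 and 6.84.

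After control spots were removed, 283 of 59305 spots that the scanner had called non-uniform or outlying were dropped. The log2 signal was averaged per probe, and each array's 75th percentile over 55662 probes was subtracted. Probes were named through RefSeq (GRCm38.p6, names only; probe positions are mm9). A gene was kept where either array showed it well above background. The probe with the highest mean log2 signal over both arrays, called the brightest, stood for a gene in counts. Where 1 array was dim, its value was set no lower than the weakest detected signal there, so such folds are lower bounds. Well above background were 67.9% and 69.0% of probes. Spot error came from 256 probes printed at least 5 times. The calculation of the difference was checked on simulated data: of 200 probes changed by known amounts, 200 were recovered. That check covers the calculation only. It does not measure how well differences as small as those of the effectors, or those of genes dim on 1 array, are known. The number of arrays limits the precision. Members and lists were chosen with earlier results of these data known. Named are *Mapk14*, every member, *Stat2*, *Irf9*, the type I receptor subunits, *Irf7*, *Usp18*, and listed genes at least 2-fold different; other genes were named after their values were seen, and some items of the rule are not reported here. Alternatives were quantile normalization, median centring, loess (span 0.3), normexp (limma 3.58.1, offset 50), the authors' values, other filters and floors, and the mean of a gene's probes. Python 3.11.15 and R 4.3.3 were used.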

Additional observations from a re-analysis of the deposited data

How the results depend on the processing

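The median difference of the effectors, −0.62 as reported, was −0.29 with normexp correction and −0.99 with no floor, and stayed within the spot SD of 0.13 under the other 7 alternatives. The count of effectors at least 2-fold lower, 3 of 9 as reported, was 0 of 9 with normexp correction, beside 0.727% of all genes. With the authors' values or only probes detected on both arrays it was 2 of 6, beside 4.96% and 5.02%. Quantile normalization, median centring and the probe mean gave 3 of 9, beside 6.60%, 6.63% and 6.76%. Loess and no floor gave 4 of 9, beside 7.03% and 7.65%, and no filter and no floor gave 4 of 10, beside 7.90%. Of 75 recomputed differences of single effectors, 62 moved by less than the spot SD and 13 by more. Many of the 75 could hardly move, since median centring and the authors' values only shift each array by a constant. For genes with 1 probe, measured on both arrays, the filter, floor and probe-mean alternatives return the reported value. The 62 are therefore no measure of stability. No effector past 2-fold changed sign, and *Oas3* ranged from −1.17 to −0.97. Normexp adds an offset, which compresses ratios of dim signals by construction, whereas omitting the floor lets signals below background set the fold. The limit for dim genes is signal over background: *Mx1*, *Mx2*, *Oasl1* and *Ifit3* were each dim on at least 1 array. No paired analysis was possible because each genotype has 1 array, and for the same reason no array could be left out.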
